A study of Homo sapiens with 19 samples.

Results

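Zinc finger protein mRNAs were followed through the nucleus, a nuclear wash and the cytoplasm of K562 cells, an established human erythroleukaemia line. Members were selected on their name and their summed exon counts: they are all genes whose symbol is ZNF followed by digits and at most one letter, without a pseudogene suffix, and whose exon counts reached at least 1000 in sum over the 16 rRNA-depleted libraries. Of 58051 human genes counted, 514 had such a symbol and 213 of these reached the sum. The members just inside the threshold were ZNF311 with 1018 counts, ZNF574 with 1011 and ZNF720 with 1009. ZNF391 with 996, ZNF557 with 919 and ZNF32 with 918 fell just outside. The highest sum was 21088 counts, of ZNF207. The sum weights deeper libraries more and chose the members, so their level is given only as a description. All 213 passed the filter on low counts.

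All cells were untreated. Total RNA was sequenced from 4 groups of 4 libraries each depleted of rRNA (whole cell, cytoplasm, nuclear wash and nucleus), and from 3 libraries of nuclear wash made without rRNA depletion. The labels say neither how the wash was made nor whether replicates were separate cultures, and a p-value here therefore reflects library-to-library spread that may be only technical. Replicates 1 and 2 carry column prefix 1 and replicates 3 and 4 carry prefix 2, and values are given by prefix where they differed. These are bulk libraries, in which fewer cells holding a transcript and fewer copies per cell cannot be told apart.

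The C2H2 zinc finger is a small fold in which a pair of cysteines and a pair of histidines hold a zinc ion. Fingers are usually strung in arrays that read DNA, and some bind RNA or protein. Many human ZNF genes also encode a KRAB box, which recruits the corepressor TRIM28 and through it the histone methyltransferase SETDB1. A large part of these genes sits in clusters on chromosome 19. Many KRAB proteins silence transposable elements.

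The coding sequence carries the features by which the members are grouped. The KRAB box was recognised by a core of 8 codons for leucine, tyrosine, any 2 residues, valine, methionine, any 1 residue and glutamate. This core was found in 112 members, called KRAB members below, and was absent from 101. Only an exact match was counted, so a KRAB box that departs from the core was missed. The 101 are therefore not a set known to lack a KRAB box. The cores of the 3 members with the largest nuclear excess are shown as examples of the element that defines the group, so their fixed codons are alike by the choice of pattern; GRCh38 sequence, coding strand, 5′ to 3′, with the codons of the fixed residues in capitals.
ZNF519, chr18:14124375-14124398, minus strand: TTATATagagatGTGATGttgGAG
ZNF785, chr16:30585432-30585455, minus strand: CTGTACcgggacGTGATGcggGAG
ZNF891, chr12:133121697-133121720, minus strand: CTGTACagagatGTGATGttgGAA

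The first zinc finger of these members and of the 3 with the largest cytoplasmic excess, none of which has the KRAB core, is printed next, so that the element common to both sets can be compared. Capitals mark the codons of the zinc-binding cysteines and histidines.
ZNF519, chr18:14105598-14105660, minus strand: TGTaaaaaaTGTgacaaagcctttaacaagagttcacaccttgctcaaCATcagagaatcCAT
ZNF785, chr16:30583196-30583258, minus strand: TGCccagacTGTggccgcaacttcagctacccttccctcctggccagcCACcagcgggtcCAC
ZNF891, chr12:133120809-133120871, minus strand: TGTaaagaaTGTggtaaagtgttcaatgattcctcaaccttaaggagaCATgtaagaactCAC
ZNF593, chr1:26170170-26170472, plus strand, joined over 2 exons: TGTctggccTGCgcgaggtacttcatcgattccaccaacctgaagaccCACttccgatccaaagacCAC
ZNF22, chr10:45003537-45003599, plus strand: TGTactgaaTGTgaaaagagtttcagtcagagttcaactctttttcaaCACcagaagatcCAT
ZNF787, chr19:56088908-56088970, minus strand: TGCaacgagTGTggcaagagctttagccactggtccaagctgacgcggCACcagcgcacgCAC

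Members encoded a median of 10 fingers of this kind. ZNF91, a repressor of SVA retrotransposons, and ZNF142 had the most, at 31, and ZNF330, ZNF720 and ZNF839 had 0 by the same pattern. On chromosome 19 lay 84 members, 67 of them with the KRAB core. The median exon length was 6427 bases. Family members resemble each other: in 54 members over 5% of the 50-base stretches of the transcript also occurred in other genes, in 80 none did, and ZNF320 shared 99.5%. Reads from such stretches cannot be assigned with certainty, and neither can reads of the 70 members that overlap another gene on the same strand. The handling of such reads is not given in the sources used here.

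Depleted libraries held 1373755 to 7955415 exon counts each and undepleted ones 923464 to 1801293. Fractions held their landmark RNAs: on the log2 scale the nuclear long noncoding RNAs MALAT1 and NEAT1 were 4.24 and 2.88 higher in the nucleus than in the cytoplasm, and the cytoplasmic mRNAs GAPDH and GATA1 were at -3.79 and -2.13. HSPA5, the mRNA of an endoplasmic reticulum chaperone, was at 0.48 there and was highest in the wash, 2.05 above the cytoplasm and 1.57 above the nucleus. In the wash MALAT1 and NEAT1 lay 1.90 and 1.76 above the cytoplasm and GAPDH and GATA1 2.92 and 1.72 above the nucleus. All 8 K562 markers were present, from 22.0 CPM for KLF1 to 1897 CPM for HBG2 in whole cells. Of 16 markers of other cell types 9 were too low to test, CDH5 among them with 0 counts, while the epithelial keratin KRT8 was at 265 CPM in whole cells and EPCAM at 53.8. CPM are exon counts per fixed library size after TMM scaling, so values compare each gene with the typical gene of a library.

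Members took 1.63% ± 0.0657 (SD, n = 4) of all exon counts in the nucleus, 1.05% ± 0.0473 in whole cells, 0.807% ± 0.0402 in the cytoplasm and 0.772% ± 0.109 in the wash. Without mitochondrial and rRNA genes the shares were 1.78% ± 0.0419, 1.32% ± 0.053, 1.07% ± 0.0236 and 1.08% ± 0.0886. By either measure the nucleus held the largest share, and cytoplasm and wash lay within each other's spread. Per kilobase of exon, ZNF146, a protein made almost wholly of fingers, was the most abundant member in whole cells at 54.9 CPM per kb. ZNF460 followed at 32.1, the nucleolar autoantigen ZNF330 at 31.9, ZNF664 at 31.7 and ZNF770 at 28.5 CPM per kb.

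Nucleus and cytoplasm were compared first. Relative to the typical gene, 103 members were higher in the nucleus and 44 lower, and 66 did not pass (edgeR quasi-likelihood test, Benjamini-Hochberg adjusted p under 0.05 over 15940 genes). Over all genes tested the test called 76.8%, 39.3% higher and 37.5% lower, against 48.4% and 20.7% of members. The median member was at 0.34 on the log2 scale (quartiles -0.27 and 0.95, range -3.01 to 2.74), against 0.03 for all genes and -0.28 for protein-coding genes, of which 29.3% were higher and 45.2% lower. By at least 2-fold, 52 members were higher and 13 lower. The share of all genes at this cut was not computed, so these counts have no background here. Scaled to the spike-ins, the members' median was -0.31, with 47 higher and 89 lower, but the median of all genes then moved to -0.60, so members lay 0.30 above it, against 0.31 with TMM. Without the low-count filter, which adds genes of few counts to the scaling and to the median, members lay only 0.05 above it, at 0.18 against 0.13. Without a composition factor both rose, to 0.95 and 0.64, with 160 members higher and 15 lower. With counts over whole gene bodies, introns included, only 199 members were tested. They lay 0.003 above the median gene, with 84 higher and 72 lower, so the set of members differed too.

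**Figure D1:**
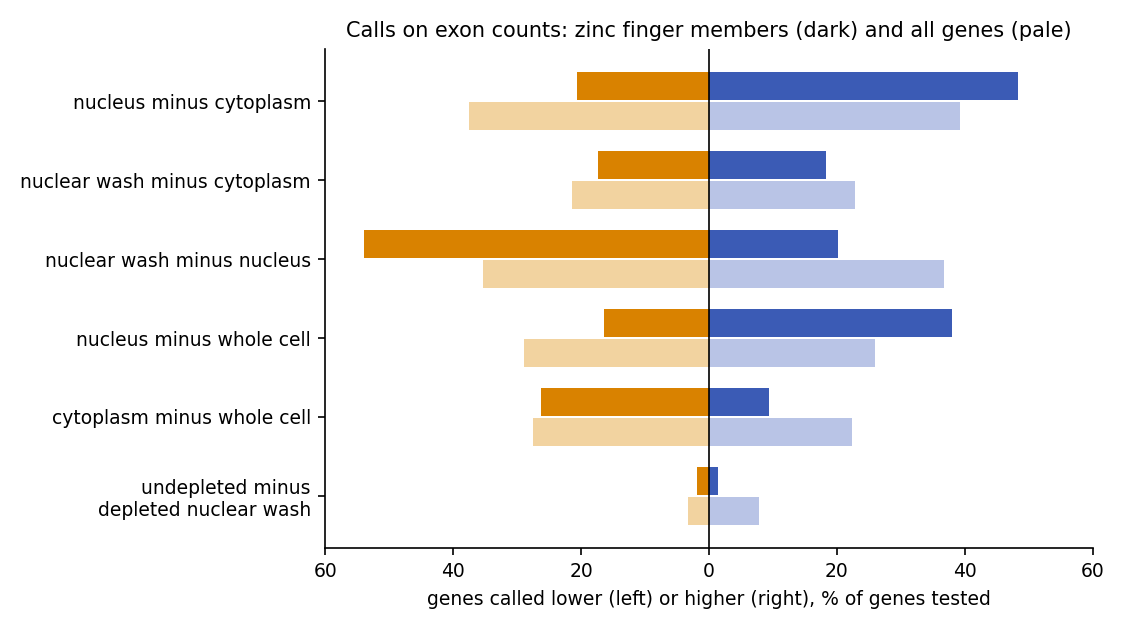
Share of members (dark bars) and of all genes tested (pale bars) called higher (blue, right) or lower (orange, left) in each comparison of exon counts, in % of genes tested. Members were higher in the nucleus than in the cytoplasm in 48.4% against 39.3% of all genes, and lower in the wash than in the nucleus in 54.0% against 35.4%.

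ZNF519 had the largest nuclear excess. It was at 52.9, 44.0, 34.3 and 33.7 CPM in the nucleus and at 6.35, 6.02, 6.47 and 5.78 CPM in the cytoplasm, a log2 difference of 2.74 (SE 0.22, edgeR adjusted p = 3.93e-10). Every nuclear library lay above every cytoplasmic one, which the rule for naming members required. The gene AC006557.4 overlaps ZNF519 on the same strand, which makes its counts uncertain. ZNF785 was at 26.4, 34.0, 39.2 and 31.6 CPM in the nucleus against 6.74, 4.73, 5.0 and 5.31 in the cytoplasm (2.61, SE 0.169, edgeR adjusted p = 1.46e-11). ZNF891 was at 93.2, 75.9, 63.9 and 59.7 CPM against 14.1, 11.6, 13.1 and 14.8 (2.45, edgeR adjusted p = 7.93e-11). In none of these 3 did the groups overlap, again by that rule.

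ZNF789 reached 2.40 with 83.4, 82.1, 91.9 and 94.4 CPM in the nucleus against 13.7, 13.9, 18.5 and 20.5. ZNF493, which shares its strand with AC010615.4 and 7.38% of its stretches with other genes, was at 2.37, ZNF782 at 2.27 and ZNF692, a regulator of gluconeogenic genes also called AREBP, at 2.24. ZNF407, a protein of 23 fingers and no KRAB core, was at 2.36 and differed between prefixes. Its nuclear libraries were at 101 and 84.5 CPM within prefix 1 and at 51.1 and 36.8 within prefix 2, and its log2 difference was 2.62 within prefix 1 and 1.94 within prefix 2. All 8 members named here were called in both prefixes. Of the 8, 6 carry the KRAB core, all but ZNF407 and ZNF692.

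At the other end, ZNF593, a ribosome biogenesis factor, was at 3.14, 4.12, 4.35 and 3.11 CPM in the nucleus and at 31.3, 35.7, 28.7 and 26.7 in the cytoplasm (-3.01, SE 0.226, edgeR adjusted p = 1.36e-10). ZNF22, a short protein of 5 fingers, was at 19.3, 16.5, 17.1 and 12.97 CPM against 98.8, 93.7, 99.6 and 94.5 (-2.54, edgeR adjusted p = 3.88e-12). ZNF787 was at 5.83, 3.44, 8.43 and 8.82 CPM against 33.9, 35.1, 35.2 and 32.8 (-2.37, edgeR adjusted p = 1.65e-09). All cytoplasmic libraries lay above all nuclear ones for each of the 3, as the naming rule required.

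ZNF664 was at 78.5, 77.3, 69.9 and 66.9 CPM in the nucleus against 349, 365, 290 and 316 in the cytoplasm (-2.17), and the same-strand gene RFLNA overlaps it. ZNF777 was at -2.17 and ZNF574 at -1.88. ZNF689 was at -2.12 and ZNF768, which binds MIR repeats, at -2.07, and both share their strand with an overlapping gene. Of these 8 only ZNF689 carries the KRAB core. The whole-cell mean lay between those of nucleus and cytoplasm in all 16 members named for this comparison.

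**Figure D2:**
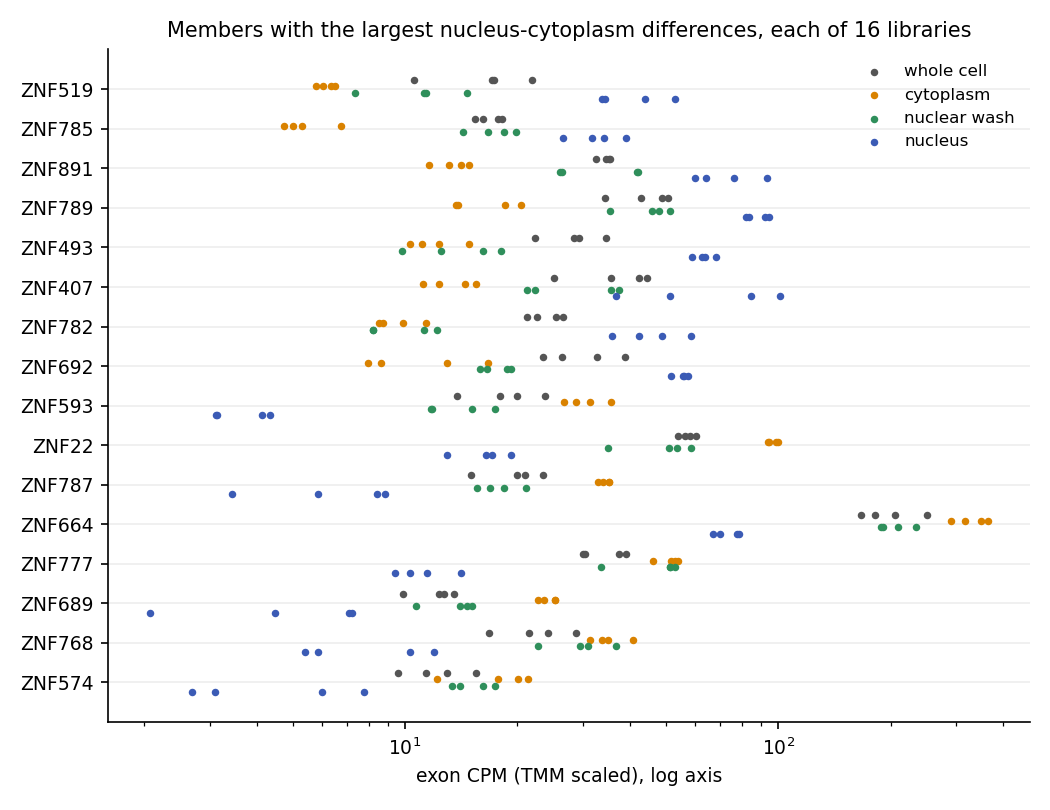
Exon CPM on a log axis of the 16 members named for the largest differences between nucleus and cytoplasm; each point is 1 library, coloured by fraction. The nuclear libraries lie to the right of the cytoplasmic ones in the upper 8 rows, from 33.7 against 6.47 CPM for ZNF519, and to the left in the lower 8. Only members whose libraries did not overlap between these groups were named.

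Members with the KRAB core leaned further to the nucleus than the others. Of 112 with the core, 67 were higher in the nucleus and 11 lower, at a median of 0.66. Of 101 without it, the median was 0.06, with 36 higher and 33 lower. Over all genes tested 39.3% were higher and 37.5% lower, and the counts without the core are near these shares. The medians differed by 0.60 on the log2 scale under each scaling tried, and the difference was 0.69 within prefix 1, 0.43 within prefix 2 and 0.52 with gene-body counts. Genes are not replicates, and this difference was not tested.

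Other features of the members went along with the core. Members longer than the median exon length were higher in 64 of 106 and lower in 10, at a median of 0.67, and shorter ones were higher in 39 of 107 and lower in 34, at 0.06. The counts of the shorter ones are near the shares over all genes tested, 39.3% higher and 37.5% lower. Within the shorter members the median was 0.35 with the core and -0.29 without, and within the longer ones 0.82 and 0.29. Among members that share no strand with another gene the medians were 0.51 and 0.02, among those overlapping no gene on either strand 0.39 and -0.05, and among those with at most 5% of shared stretches 0.65 and 0.01. The gap between members with and without the core was thus present in each of these subsets. Location on chromosome 19 went with little difference: the 84 members there had a median of 0.36, with 40 higher and 12 lower, against 63 and 32 of 129 elsewhere, at 0.31. KRAB members on chromosome 19 had a median of 0.42 and KRAB members elsewhere of 0.78. Members with over 10 fingers had a median of 0.44, those with 6 to 10 of 0.17 and those with 1 to 5 of 0.06. Across the 213 genes, Spearman's rho of the difference with exon length was 0.35 and with the number of fingers 0.17.

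**Figure D3:**
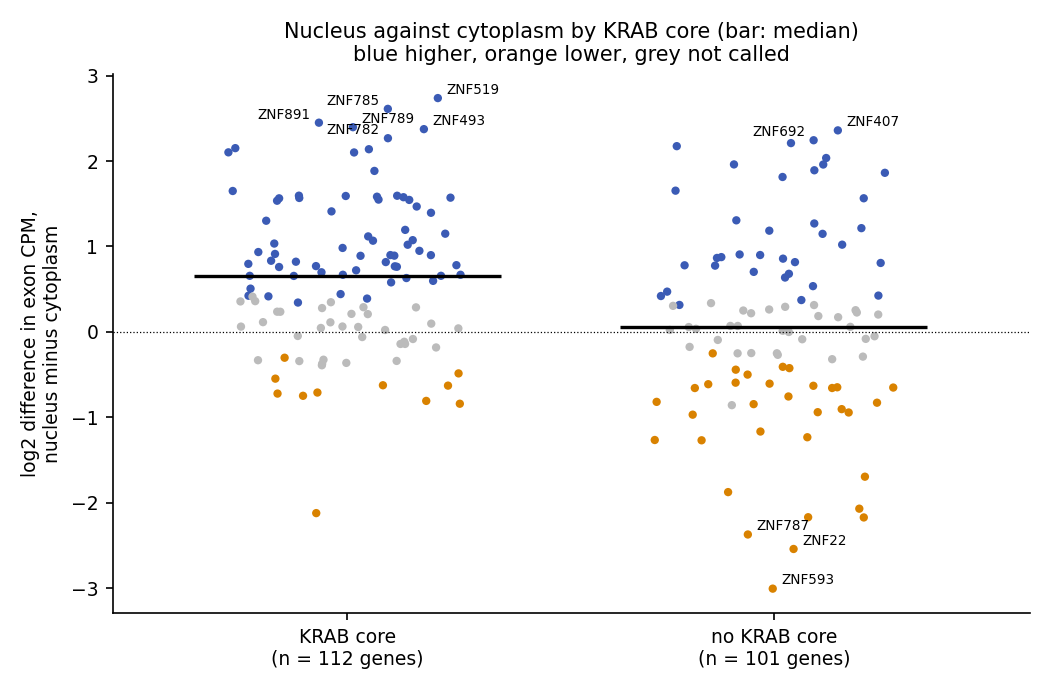
Log2 difference in exon CPM, nucleus minus cytoplasm, for each of 213 members, with the KRAB core (left) and without (right); blue points were called higher, orange lower and grey not called, and the bar is the median. The bars stand at 0.66 and 0.06, and the 3 lowest members, ZNF593, ZNF22 and ZNF787, lack the core.

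KRAB proteins with described targets were mostly higher in the nucleus, as were the KRAB members as a whole. Of 16 on a list from general knowledge, 14 were tested and had a median of 0.91, with 10 higher and 2 lower. Over all genes tested 39.3% were higher and 37.5% lower, and the list was not tested as a set. ZNF649, which overlaps ZNF577, was at 1.58 and ZNF224, a partner of WT1, at 1.58. ZNF445, which guards imprinted loci and overlaps C3orf86, was at 1.19 (though 0.15 and not called with gene-body counts, edgeR adjusted p = 0.124). ZNF91 was at 1.15 and ZNF274, which binds the ends of other ZNF genes, at 0.82. ZNF436 was lower at -0.72 (edgeR adjusted p = 0.00596), but at -0.20 within prefix 2 (edgeR adjusted p = 0.477) and -0.11 without a composition factor (edgeR adjusted p = 0.692). Also lower was ZNF420, which is no member, at -0.48 (edgeR adjusted p = 0.0468). ZNF268 was higher at 0.78 on exon counts but at -0.73 with gene-body counts, and a gene on its strand overlaps it.

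Of 13 members known for work on RNA, ribosomes or in the cytoplasm 4 were higher in the nucleus and 6 lower, at a median of -0.55. These shares are near those of protein-coding genes, at 29.3% and 45.2%. ZNF207, the spindle protein BuGZ, was at 702, 662, 665 and 663 CPM in the nucleus against 158, 161, 126 and 136 in the cytoplasm (2.21, SE 0.14, edgeR adjusted p = 1.72e-11), while 20.7% of its stretches also occur in other genes. ZNF638, overlapped by AC007878.1, a nuclear protein involved in silencing of unintegrated retroviral DNA, was at 1.86 and ZNF326, a subunit of the DBIRD complex that links elongation to splicing, at 0.78. ZNF326 was not called with gene-body counts (0.11, edgeR adjusted p = 0.525). ZNF706 was at 0.37 (edgeR adjusted p = 0.0184), but at -0.08 with gene-body counts, and did not pass within prefix 1 (0.23, edgeR adjusted p = 0.217) or without cytoplasm replicate 3 or 4 (0.33 and 0.26). With spike-in library sizes ZNF706 was at -0.27, which is above the median gene at -0.60 there. On that scale ZNF326, ZNF274, ZNF268 and the methyltransferase SETDB1 were not called, at 0.12, 0.23, 0.14 and 0.18.

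Both factors of the ribosome on that list beside ZNF593 were lower. ZNF598, the ubiquitin ligase that senses collided ribosomes, was at 61.4, 63.6, 57.7 and 51.4 CPM in the nucleus against 99.6, 116, 107 and 116 in the cytoplasm (-0.90, SE 0.12, edgeR adjusted p = 7.01e-07). ZNF622, which matures the large ribosomal subunit, was at -1.17. The RNA-binding p53 cofactor ZNF385A was at -1.70, ZNF330 at -0.85 and ZNF277 at -1.27. With gene-body counts ZNF277 was at 0.92 and ZNF385A at -0.17, which did not pass (edgeR adjusted p = 0.164), and without a composition factor ZNF330 was at -0.23, which did not pass either (edgeR adjusted p = 0.0771).

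Other zinc finger families and the partners of KRAB proteins were described in the same contrast. Of 15 tested SCAN-domain ZSCAN genes 10 were higher in the nucleus and 1, ZSCAN22, lower, at a median of 0.81. Of 35 ZBTB genes 7 were higher and 14 lower, at -0.19, and of 9 KLF genes 7 were lower and 2 did not pass, at -1.52. Of 13 ZFP genes 4 were higher and 3 lower, at -0.12, and of 6 ZKSCAN genes 2 were higher and 2 lower, at 0.37. Of 27 corepressor and heterochromatin partners, the test called 6 up and 14 down in the nucleus, and their median was -0.51. Of protein-coding genes 29.3% were higher and 45.2% lower, and the counts of ZBTB genes and of these partners are not far from these shares. The ZSCAN, KLF, ZFP and ZKSCAN counts stand beside the same shares, and none of these lists was tested as a set. The corepressor TRIM28 was at -1.67, the heterochromatin protein CBX5 at -2.04 and SUMO2 at -2.89. SETDB1 was at 0.79, the helicase ATRX at 1.97 and the remodeller CHD4 at 1.03. With gene-body counts neither SETDB1 (0.18, edgeR adjusted p = 0.252) nor CHD4 (-0.31, edgeR adjusted p = 0.107) passed, and with spike-in library sizes CHD4, at 0.40, did not (edgeR adjusted p = 0.074). TRIM28 mRNA and the median KRAB member thus lay on opposite sides of the typical gene.

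The nuclear wash was set against the nucleus next; this comparison shares the nuclear libraries with the preceding one. In the wash 43 members were higher and 115 lower, and 55 did not pass. Of all genes the test called 72.1%, 36.7% higher and 35.4% lower. The median member was at -0.45, the median gene at 0.06 and the median protein-coding gene at 0.32. With gene-body counts 59 of 199 members tested were higher and 72 lower. The members' median then lay 0.06 under that of all genes, against 0.51 under it with exon counts and 0.23 without the low-count filter. KRAB members were higher in 12 and lower in 75 of 112, at a median of -0.67, and the others higher in 31 and lower in 40, at -0.06. This gap of -0.62 between the medians was -0.31 with gene-body counts.

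ZNF782 was lowest against the nucleus. It was at 12.1, 11.2, 8.20 and 8.18 CPM in the wash and 48.9, 58.4, 42.4 and 35.8 in the nucleus (-2.25, SE 0.18, edgeR adjusted p = 7.37e-10), while the cytoplasm was at 8.53 to 11.4. ZNF117 was at -2.22, ZNF721 at -2.18, ZNF780B at -2.17 and ZNF493 at -2.16, and each of these 4 has an overlapping gene on its strand. ZNF441 was at -1.90, ZNF519 at -1.87 and ZNF292, a very large protein, at -1.68. ZNF777 was highest against the nucleus, with 51.1, 33.5, 51.2 and 52.8 CPM in the wash against 9.41, 14.1, 10.3 and 11.4 (2.05, SE 0.18, edgeR adjusted p = 2.68e-09). ZNF593 was at 1.87, ZNF768 at 1.84, ZNF574 at 1.64, ZNF22 at 1.59, ZNF664 at 1.49, ZNF622 at 1.45 and ZNF787 at 1.45. All 8 of these were negative, at -0.52 to -1.12, with spike-in library sizes, but above the median gene, which was at -2.47. ZNF787 was at -0.02 with gene-body counts.

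Against the cytoplasm 39 members were higher in the wash and 37 lower, at a median of 0.00, and 137 did not pass. Those lower were 24 within prefix 1 and 60 within prefix 2. With spike-in library sizes, under which the median gene was at -3.10, all 213 were lower. The test called 44.2% of all genes, 22.8% higher and 21.4% lower. KRAB members, with 24 higher and 19 lower at a median of 0.01, and the others, with 15 and 18 at -0.01, had like counts. ZNF785 was highest at 1.67, with 19.9, 16.7, 18.4 and 14.3 CPM in the wash, followed by ZNF789 at 1.43, ZNF891 at 1.34, ZNF407 at 1.12, ZNF224 at 0.98, ZNF550 at 0.92 and ZNF814, which shares 27.0% of its stretches with other genes, at 0.93. ZNF318, a nuclear protein known for control of IgD expression in B cells, was at 0.94. All 8 were negative with spike-in library sizes, at -1.49 to -2.24, but above the median gene.

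ZNF318, whose counts are uncertain since CRIP3 overlaps it on the same strand, set itself apart among these. Its wash libraries were the highest of all fractions. They were at 150, 142, 146 and 128 CPM, against 69.9, 95.2, 86.2 and 87.2 in the nucleus, 67.8, 65.5, 83.8 and 77.3 in the cytoplasm and 72.0 to 82.3 in whole cells. Its difference from the nucleus was 0.74 (SE 0.12, edgeR adjusted p = 1.27e-05), and nucleus and cytoplasm differed by 0.20, which did not pass (edgeR adjusted p = 0.125). ZNF480 went the other way. Its wash libraries, at 25.02, 33.2, 15.2 and 12.3 CPM, lay under all 4 cytoplasmic ones, at 71.6, 58.2, 39.0 and 46.8 (-1.33, edgeR adjusted p = 0.000387), and under all 4 nuclear ones, at 61.0, 72.9, 39.98 and 44.6 (-1.35, edgeR adjusted p = 0.000174). ZNF33B was also under both, by -0.98 and -1.43, and ZNF593 at -1.14, ZNF146 at -0.98, ZNF277 at -0.97, ZNF22 at -0.96, ZNF787 at -0.93 and ZNF37A, which shares 14.0% of its stretches, at -0.89 were lower than in the cytoplasm.

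Whole cells lay between the fractions. Against whole cells 81 members were higher in the nucleus and 35 lower, at a median of 0.23, while 54.9% of all genes were called, 25.9% higher and 29% lower. Without a composition factor only 12 were lower and 136 higher, and with DESeq2 19 were lower. In the cytoplasm 20 members were higher than in whole cells and 56 lower, at a median of -0.13, while 50% of all genes were called, 22.3% higher and 27.6% lower. The members' median lay 0.13 under that of all genes, but 0.12 above it without the low-count filter. With gene-body counts 75 of 199 were higher there, and without cytoplasm replicate 1 or whole cell replicate 3 the higher ones were 12 or 13. KRAB members were higher in 3 (ZNF124, ZNF317 and ZNF689) and lower in 37 of 112, at a median of -0.22, and the others higher in 17 and lower in 19, at 0.03. ZNF519 at 1.26, ZNF354B, which shares 15.4% of its stretches, at 1.15 and ZNF493 at 1.12 led the nucleus against whole cells on TMM scaling. With spike-in library sizes these 3 were at -0.62 to -0.75 and still above the median gene, which was at -1.83. ZNF593 at -2.30, ZNF22 at -1.78 and ZNF777 at -1.58 were the lowest. In the cytoplasm ZNF689 at 1.01, ZNF787 at 0.81 and ZNF22 at 0.76 were the highest on TMM scaling, and at -0.23, -0.43 and -0.48 with spike-in library sizes, where the median gene was at -1.24. In the cytoplasm ZNF785 at -1.63, ZNF519 at -1.48 and ZNF407 at -1.46 were the lowest on TMM scaling.

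Intronic counts, the gene-body count less the exon count, were used to follow unspliced RNA. They were read from 142 members that overlap no gene on their strand and whose gene-body count was below the exon count in no library. Intronic counts made up 63.4% ± 1.29 (SD, n = 4) of the members' gene-body counts in the nucleus. Whole cells were at 43.7% ± 2.61, the wash at 30.3% ± 2.78, its undepleted counterpart at 25.1% ± 2.82 (n = 3) and the cytoplasm at 12.7% ± 1.30. The 4 depleted fractions did not overlap: nuclear libraries lay between 61.8 and 64.5% and cytoplasmic ones between 11.1 and 13.9%. Wash libraries were at 32.3 and 32.7% within prefix 1 and at 29.4 and 26.7% within prefix 2. Over all genes the nucleus was at 72.7% ± 2.12, whole cells were at 50.3% ± 3.66, the wash was at 27.9% ± 3.23 and the cytoplasm at 16.5% ± 1.36. Within each library the members' share was under that of all genes in nucleus, whole cells and cytoplasm. In the wash the share of the 142 members was above that of all genes in all 4 libraries. By replicate it was at 32.3 against 28.9%, 32.7 against 32.0%, 29.4 against 25.5% and 26.7 against 25.1%. The 3 undepleted libraries had the same order, with 27.9 against 26.2%, 25.2 against 22.3% and 22.2 against 20.8%, and these differences were not tested. In the 65 members that overlap no gene at all, the share was 62.1% in the nucleus and 10.3% in the cytoplasm. These 65 did not keep the order in the wash. By replicate they were at 30.3, 29.9, 26.1 and 23.6%, above all genes in replicates 1 and 3 and under them in 2 and 4. In each of the 3 undepleted libraries they lay under all genes, with means of 21.7% against 23.1%. The order in the wash thus depended on which members were taken.

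**Figure D4:**
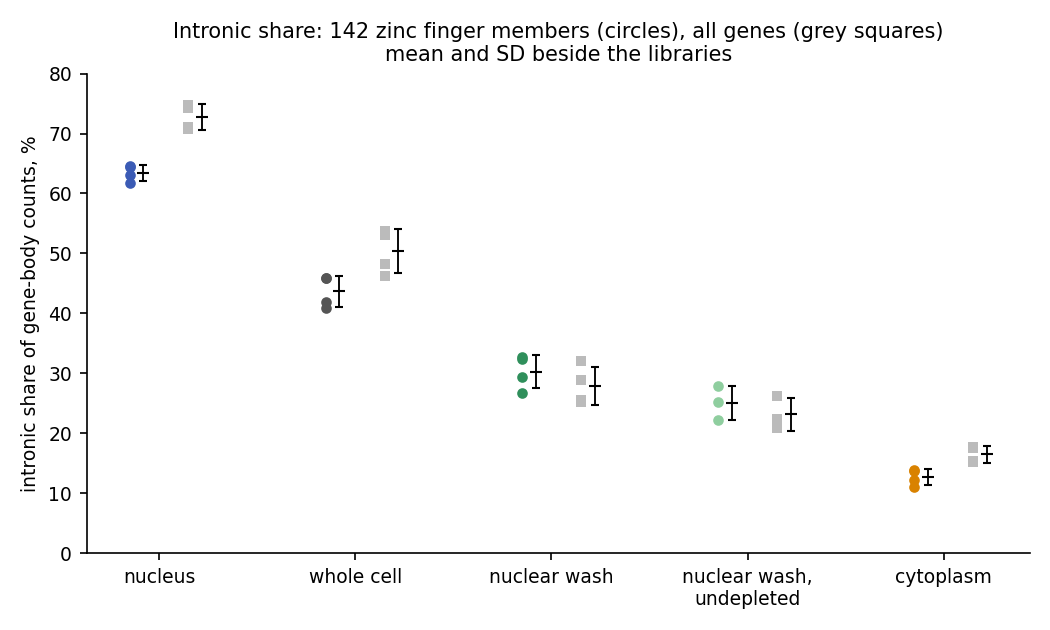
Intronic share of gene-body counts in % by fraction, for 142 members together (circles, 1 per library) and all genes (grey squares), with mean and SD beside the libraries. All genes leave out mitochondrial and rRNA genes and, unlike the members, were not filtered for overlap. Member shares fall from 63.4% in the nucleus to 30.3% in the wash and 12.7% in the cytoplasm.

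Per gene, the log2 ratio of intronic to exon counts was tested in 198 members. In 186 of them the gene-body count was below the exon count in no depleted library. The ratio was higher in the nucleus than in the cytoplasm in 189 and lower in 2, at a median of 3.36, against 3.29 over all genes (limma, Benjamini-Hochberg adjusted p under 0.05). Of all genes 82.3% were called, 78.8% higher and 3.48% lower. In the wash it was higher than in the cytoplasm in 156 and lower in 1, at a median of 1.58 against 1.09 over all genes, of which 55.1% were called, 52.8% higher and 2.30% lower. Against the nucleus it was lower in the wash in 176 and higher in 1, at -1.75 against -2.09, where 73.2% of all genes were called, 2.52% higher and 70.7% lower. The 1 higher member was ZNF721, whose gene-body counts fall below its exon counts in some libraries and whose ratio is therefore not read. Against whole cells the nucleus was higher in 147, while 51 did not pass, at 1.05 against 1.06, where 55.5% of all genes were called, 54.2% higher and 1.31% lower.

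Members differed widely in this ratio. The largest nuclear excesses of the ratio were 8.44 in ZNF808, 7.71 in ZNF445 and 6.99 in ZNF514. Gene-body counts of these members fell below their exon counts in cytoplasmic libraries, so their ratios are not read. ZNF689, which shares its strand, had a nuclear ratio 6.62 above the cytoplasmic one and ZNF777 one of 6.15, followed by ZNF697 at 5.60. ZNF777 was intronic by 91.6, 88.8, 90.1 and 87.6% in the nucleus and by 11.9, 9.34, 9.25 and 12.2% in the cytoplasm. ZNF787 was at 92.6, 96.0, 88.3 and 86.1% against 16.2, 18.1, 9.81 and 12.5%. ZNF787 and ZNF777 thus belong both to the members with the largest cytoplasmic excess of exon counts and to those whose nuclear RNA was mostly intronic. In ZNF22 nuclear shares were 23.2, 18.6, 30.8 and 24.2% and cytoplasmic ones 0.305 to 1.19%.

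Members with the largest nuclear excess did not all have a high intronic share, a measure that does not take intron and exon length into account. ZNF891 was intronic by 5.02, 7.92, 6.75 and 8.0% in the nucleus, among the lowest shares of all members, and by 0.00 to 6.58% in the cytoplasm, beside a nuclear excess of 2.45 in exon counts. ZNF785 was at 56.6, 48.4, 37.4 and 45.0% in the nucleus and 13.2 to 30.6% in the cytoplasm. In ZNF789 the intronic share was not lower in the cytoplasm, with 71.1, 70.2, 59.1 and 62.0%, than in the nucleus, with 58.4, 58.4, 54.8 and 54.4% (log2 ratio -0.56, SE 0.22, limma adjusted p = 0.0275). Within prefix 2 alone this difference did not pass (-0.35, limma adjusted p = 0.182). ZNF814 was the other member called lower in the nucleus (-0.50, limma adjusted p = 0.0192), which did not pass within prefix 1 (-0.38, limma adjusted p = 0.246). It shares its strand with AC010326.2 and AC010326.3 and 27.0% of its stretches with other genes, which makes its counts uncertain.

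ZNF441 kept its introns in the wash. Its ratio was 3.28 above the cytoplasm in the wash (limma adjusted p = 5.73e-07) and differed by -0.23 from the nucleus, which did not pass (limma adjusted p = 0.499). ZNF335, a subunit of histone methyltransferase complexes, was the only member whose ratio fell from cytoplasm to wash (-0.62, limma adjusted p = 0.0417), and it did not pass within prefix 1 (-0.32, limma adjusted p = 0.515). The highest nuclear shares of all tested members were those of ZNF277 at 93.3%, ZNF609, host of a well-known circular RNA, at 91.5% and ZNF586 at 91.2%, all 3 of which hold or overlap other genes on their strand. ZNF830, which has no intron, was at 0, ZNF281 at 0.383% and ZNF593 at 3.39%.

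Intron density, intronic counts per intron base as a percentage of exon counts per exon base, takes length into account. Over the members together it was 36.1% ± 1.98 (SD, n = 4) in the nucleus and 16.2% ± 1.71 in whole cells. It was lower still in wash, at 9.05% ± 1.17, and cytoplasm, at 3.03% ± 0.354. The median of 141 members was 37.2% in the nucleus and 3.41% in the cytoplasm, against 39.96% and 2.82% over 8869 genes of the same kind. KRAB members had a median nuclear density of 39.6% (68 genes) and the others of 36.5% (73 genes). In the wash these medians were 13.5% and 8.98%, and in the cytoplasm 3.87% and 3.12%. Density reached that of the exons in 9 members in the nucleus, among them ZNF646 at 170%, ZNF212 at 164%, ZNF385A at 151% and ZNF787 at 127%, none of which carries the KRAB core.

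**Figure D5:**
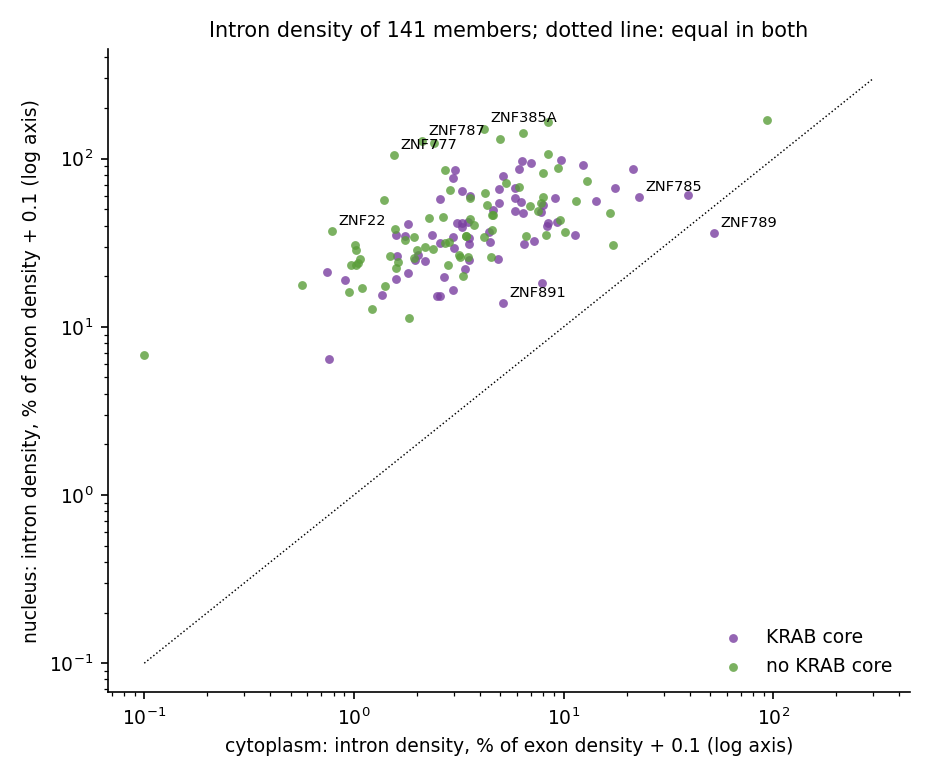
Intron density as % of exon density, with 0.1 added, in the nucleus (vertical, log axis) against the cytoplasm (horizontal, log axis) for 141 members, purple with and green without the KRAB core; the dotted line marks equal values. Of the 141 members 140 lie above the line, with medians of 37.2% and 3.41%, and ZNF789 lies below it.

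Exon counts contain unspliced RNA too. When the intron density of each gene was taken from its exon density, a description made after these data were seen, the median difference between nucleus and cytoplasm fell from 0.31 to -0.54 over 132 members, and the members above 0 went from 83 to 44. KRAB members went from 0.54 to -0.30 and the others from 0.03 to -0.68. The 9 members whose density reached that of the exons were left out, and all of them lack the core. This left 68 KRAB members and 64 others, so only the others were trimmed. Over 7738 genes of the same kind the median went from -0.24 to -0.997. The members' median lay above that of these genes in both descriptions. Each member's difference between nucleus and cytoplasm went with the cytoplasmic intron density at a Spearman rho of 0.57 across 141 genes and with the nuclear one at -0.02; both axes share the exon counts, so the first is given as a description only.

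The wash prepared without rRNA depletion held 3 members higher and 4 lower than the depleted wash, and 206 did not pass. Of all genes 11.1% were called, 7.75% higher and 3.35% lower. The median member was at -0.24 and the median gene at -0.04. With the full column prefix, number and letter, as a block, which pairs each undepleted library with 1 depleted library and leaves out depleted replicate 1, 12 members were higher and 49 lower, and leaving out undepleted replicate 1 gave 20 lower, and replicate 2 or 3 gave 0. ZNF777 was at 57.8, 77.8 and 97.1 CPM without depletion against 37.8, 24.05, 36.1 and 38.1 with it, in the separate scaling of the wash libraries (1.20, edgeR adjusted p = 0.00634). ZNF385A was at 0.77 and ZNF317 at 0.66. ZNF669 was at 7.94, 11.4 and 10.9 CPM against 34.8, 20.9, 24.8 and 22.6 (-1.31, edgeR adjusted p = 0.0134), ZNF770 at -1.28, ZNF273 at -1.03 and ZNF22 at -0.91. Apart from that of ZNF777, each of these calls was lost when 1 or another library was left out. Library preparation differs between these groups, and its effect on single genes cannot be told apart from that of depletion.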

How the data were processed

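The authors deposited 2 tables of raw read counts per gene, without normalization, one over exons and one over whole gene bodies, with a column per library; 0 columns of per-sample values were left unused. Per the labels' protocols, Trizol LS was used to isolate the RNA, yeast transcripts made in vitro were spiked in, and libraries were made with a stranded SMARTer kit from which the rRNA depletion step was left out for the undepleted wash. The tools listed in the submitters' processing notes are featureCounts 1.6.2, STAR 2.7.0a and cutadapt 2.5, with hg38 as the build. The sources used here do not give the annotation release, the strand setting or the handling of shared reads, so overlapping and near-identical genes are uncertain. The 11 spike-in transcripts took 0.192 to 4.14% of counts and stayed out of library sizes and tests; their amount per cell is not given, so values scaled by them are not amounts of RNA. No molecular identifiers are mentioned, so PCR copies cannot be told from molecules.

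Symbols, positions, exons and coding sequences came from GENCODE 29 on GRCh38, the assembly also called hg38, where 57447 of 58051 identifiers were found. Fingers and the KRAB core were sought in the translated coding sequence of the longest complete coding transcript (the core in any coding transcript); a RefSeq protein table had been planned for this and was not used here. Members and gene lists were chosen with earlier results of these data known.

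Exon counts of the 16 depleted libraries entered one fit of edgeR 4.0.16 (R 4.3.3; filterByExpr, TMM, quasi-likelihood test, 15940 genes), and the 7 wash libraries a separate one (11627 genes). A gene was called at a Benjamini-Hochberg adjusted p under 0.05 over all genes tested. Intronic counts are gene-body less exon counts, with negative values set to 0, and limma 3.58.1 tested the log2 ratio of intronic to exon counts, each plus 0.5, in 15369 genes with introns and at least 10 gene-body counts in at least 4 libraries. The procedures were tested on simulated data. Shared stretches are 50-base words of the members' transcripts found in other genes.

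The members named are the called ones with the largest difference in each direction (8 for each pair among nucleus, cytoplasm and wash, 3 for other exon comparisons) at a mean of at least 5 CPM in the higher group and without overlap between libraries, those with the most extreme intronic ratios and shares, the most abundant per kb, and members of the fixed lists. ZNF212, ZNF646, ZNF142, ZNF320, ZNF839 and the lower-ranked values of members named in another comparison were added after their values were seen. Same-numbered libraries of different fractions deviated together in all 24 pairs (correlation of deviations from group means 0.116 to 0.414), so the numbers, taken from the labels, were treated as pairing the samples in an alternative with the replicate number as a block. Other alternatives were DESeq2 1.42.0, RLE factors, no composition factor, spike-in library sizes, no low-count filter, gene-body counts, no mitochondrial or rRNA genes, each prefix alone and leaving out each library; for the ratio, a prior of 2, a minimum of 50 counts, no overlapping genes and, added after the data were seen, no genes with gene-body counts below exon counts.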

Additional observations from a re-analysis of the deposited data

Results flagged for a closer look

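In 9 of 232 groups of 4 libraries, 1 library lay far from the other 3, where chance gives about 1 in 20 groups. ZNF117 was at 71.6 CPM in whole cell replicate 3 against 50.6 to 52.7 in the others, and ZNF146 at 284.5 CPM in cytoplasm replicate 4 against 236.4 to 244.6. ZNF207 was at 702.5 CPM in nucleus replicate 1 against 662.2 to 664.7. ZNF622 was low at 39.0 CPM in cytoplasm replicate 3 against 47.8 to 49.6 and at 28.5 CPM in whole cell replicate 2 against 36.5 to 37.5. ZNF649 was at 9.71 CPM in cytoplasm replicate 3 against 12.96 to 13.1, and at 25.02 CPM in wash replicate 1 against 14.6 to 16.4. ZNF777 was at 33.5 CPM in wash replicate 2 against 51.1 to 52.8, and ZNF780B at 55.8 CPM in nucleus replicate 3 against 39.9 to 41.2.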

How the results depend on the processing

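Of the values of single genes under the alternatives, 1784 kept direction and side of the threshold, 61 kept the direction only and 30 changed sign; the cause was not tested. Members called, as higher and lower, moved by over 1.5 times in the following cases. Nucleus against whole cells had 19 lower with DESeq2, 19 with RLE factors and 20 without mitochondrial and rRNA genes. Without a composition factor nucleus against cytoplasm had 160 and 15, wash against nucleus 9 higher, nucleus against whole cells 136 and 12, cytoplasm against whole cells 6 and 93, and undepleted against depleted wash 1 and 92. Spike-in library sizes gave 47 and 89 for nucleus against cytoplasm, 0 and 213 for wash against cytoplasm, wash against nucleus and nucleus against whole cells, 0 and 211 for cytoplasm against whole cells, and 1 and 2 for the undepleted wash. Without the low-count filter, nucleus against whole cells had 52 higher and the undepleted wash 33 lower. With gene-body counts nucleus against cytoplasm had 72 lower, wash against nucleus 72 lower, nucleus against whole cells 52 higher, cytoplasm against whole cells 75 higher and the undepleted wash 7 lower. Under this setting 199 members were tested, and 198 in the undepleted wash. Wash against cytoplasm had 24 lower within prefix 1 and 60 within prefix 2, and the undepleted wash 10 and 30 within prefix 2 and 5 and 9 with DESeq2.

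For the intronic ratio, the few calls against the main direction moved: nucleus against cytoplasm had 1 lower within either prefix and 0 without overlapping genes, wash against cytoplasm 0 within prefix 1 and with a prior of 2, and wash against nucleus 2 higher within prefix 2, with a prior of 2 and with at least 50 counts, and 0 without overlapping genes and without genes whose gene-body count fell below the exon count. Without overlapping genes fewer genes were tested, and nucleus against cytoplasm had 65 higher, wash against cytoplasm 57 higher, wash against nucleus 62 lower and nucleus against whole cells 59 higher.

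With the replicate number as a block no count among depleted libraries moved by over 1.5 times, while a block on the full column prefix, number and letter, without depleted replicate 1, gave 12 higher and 49 lower in the undepleted wash. Different-numbered libraries of 1 prefix had a median correlation of 0.215, against 0.219 for same-numbered ones and -0.222 across prefixes, so the numbers hardly exceed the prefix.

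Leaving out single libraries gave 96 to 108 higher and 41 to 47 lower for nucleus against cytoplasm, 36 to 42 and 36 to 49 for wash against cytoplasm, 36 to 45 and 103 to 117 for wash against nucleus, 69 to 80 and 26 to 35 for nucleus against whole cells, 12 to 20 and 49 to 55 for cytoplasm against whole cells, and 1 to 4 and 0 to 20 for the undepleted wash. For the ratio the ranges were 186 to 188 and 0 to 2, 152 to 158 and 0 to 1, 1 to 3 and 168 to 174, and 131 to 148 and 0 to 1, in the order nucleus against cytoplasm, wash against cytoplasm, wash against nucleus and nucleus against whole cells.

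Signs of single genes changed as follows. Spike-in library sizes move all genes alike: they put the median gene at -0.60 in nucleus against cytoplasm, -3.10 in wash against cytoplasm, -2.47 in wash against nucleus, -1.83 in nucleus against whole cells and -1.24 in cytoplasm against whole cells, and all 23 values that changed sign lay above these medians. On this scale ZNF706 was at -0.27 in nucleus against cytoplasm. In wash against cytoplasm ZNF785 was at -1.49, ZNF789 at -1.70, ZNF891 at -1.78, ZNF407 at -2.01, ZNF224 at -2.15, ZNF318 at -2.21, ZNF814 at -2.21 and ZNF550 at -2.24. In wash against nucleus ZNF777 was at -0.52, ZNF593 at -0.68, ZNF768 at -0.75, ZNF574 at -0.91, ZNF22 at -0.94, ZNF664 at -1.02, ZNF622 at -1.09 and ZNF787 at -1.12. In nucleus against whole cells ZNF519 was at -0.62, ZNF354B at -0.71 and ZNF493 at -0.75, and in cytoplasm against whole cells ZNF689 at -0.23, ZNF787 at -0.43 and ZNF22 at -0.48. With gene-body counts ZNF277 was at 0.92, ZNF706 at -0.0824, ZNF268 at -0.73 and CHD4 at -0.31 in nucleus against cytoplasm, ZNF787 at -0.0243 in wash against nucleus and ZNF777 at 0.0229 in nucleus against whole cells. Without a composition factor ZNF281 was at 0.0128 in nucleus against cytoplasm. The undepleted libraries held 923464 to 1801293 exon counts each, and the part of depth in their few calls was not tested. Without the low-count filter the members' median lay 0.08 above that of all genes in nucleus against whole cells, against 0.19 with it.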
